A study of Homo sapiens with 12 samples.

Results

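SPARCLE over-expressing HCT116 cells (OE) were compared with wild-type HCT116 cells (WT), both kept for 48 h in regular medium, across autosomal genes. HCT116 is an established human colon carcinoma line. The comparison used 4 of the 12 libraries of the study, 2 OE and 2 WT, which the series design calls biological replicates and which carry the letters a and b. The members were the autosomal genes, 16036 of the 16676 genes listed, and 14672 of them passed a filter on low values (1 TPM or more in 2 or more of the study's 12 libraries). TPM is a level per gene length, scaled so that the genes of every library add up to the same total.

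The other groups used below included SPARCLE knockout cells (KO), also kept for 48 h in regular medium, with 2 libraries. OE, WT and KO cells kept for 48 h in medium with 1 µM doxorubicin were used too, with 2 libraries each. All 12 libraries entered the fit that set the SEs and p-values. Doxorubicin is an anthracycline that blocks topoisomerase II and breaks DNA. All cells were grown in DMEM with serum. The labels do not say how SPARCLE was over-expressed, whether the OE line is 1 clone or a pool, or whether it carries a vector that the WT cells lack. No group of cells with an empty vector was analysed here, so SPARCLE and any other difference between the lines cannot be told apart. The p-values measure the spread between these libraries only.

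SPARCLE is a long non-coding RNA made from the locus of the microRNAs miR-34b and miR-34c, a locus that the tumour suppressor p53 switches on after DNA damage. It is known for promoting the cleavage of PARP1, a DNA damage sensor, by caspase 3 in dying cells. The miR-34 family represses cell cycle and survival genes, so miR-34 targets and p53 targets were among the genes examined. Mature microRNAs encoded inside the SPARCLE gene are shown because a transcript of this locus can hold them. The set is not complete: hsa-miR-34c-5p was missing from the sequences used here. Those shown are RefSeq sequences (GRCh38.p14, chromosome 11, + strand), 5′ to 3′, with the seed, bases 2 to 8, in capitals.
hsa-miR-34b-5p: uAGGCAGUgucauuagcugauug
hsa-miR-34b-3p: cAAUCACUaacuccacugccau
hsa-miR-34c-3p: aAUCACUAaccacacggccagg
The 3 seeds differ from each other. They lie at chr11:111512950-111512972, chr11:111512987-111513008 and chr11:111513484-111513505, within the SPARCLE gene at chr11:111510602-111513888. The labels do not say whether the over-expressed RNA includes them, and the genes MIR34B, MIR34C and BTG4 were not analysed here.

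The 4 libraries held 12599392 and 18380251 reads on listed genes in OE cells and 18570797 and 12951919 in WT cells, as recovered from the deposited values. Small RNA genes took 52.7 and 53.7% of the TPM in OE libraries and 51.9 and 51.4% in WT libraries. The median gene differed between replicates a and b by 0.22 log2 units in OE cells and 0.26 in WT cells. Of 14 colon epithelial markers, 11 were listed and 10 stood at 1 TPM or more in all 4 libraries, with summed levels of 2119 and 1608 TPM in OE cells and 1001 and 1449 TPM in WT cells. Of 12 mesenchymal markers 4 were listed, adding up to 6.12 and 6.13 TPM in OE cells and 6.99 and 9.95 TPM in WT cells. Of 8 leukocyte markers only ITGAM was listed, and it stayed at 0.29 TPM or less in all 4 libraries. The markers listed thus matched an epithelial line. The colon markers CDH17, LGALS4 and CEACAM5 were not listed, so colon origin rests mainly on the labels.

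SPARCLE itself stood at 26.5 and 27.3 TPM in the OE libraries, against 0.0087 and 0.0099 TPM in the WT libraries. These levels came from 384 and 622 reads in OE cells and from 0 and 0 reads in WT cells, so the small WT values are a prior count added before deposit. The reads rest on a SPARCLE length of 1645 bases, which was found by a search for whole reads and not taken from an annotation. With a floor of 3 reads per library, SPARCLE was at least 152.9-fold higher in OE cells. The limma difference was 4.79 ± 0.22 on the log2(TPM + 1) scale (SE, n = 2 each, adjusted p = 1.67e-07), and it depends on the added pseudocount of 1 TPM. The KO libraries also had 0 and 0 reads. Whether the counting used strand is not given in the sources used here, so reads of an overlapping antisense gene cannot be told apart from reads of SPARCLE.

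Besides SPARCLE, 12 autosomal genes changed between OE and WT cells. SLPI, FXYD3 and DPPA2 rose. PRKACB, WNT16, VCAN, HTR7, PODXL2, AC012625.1, ZNF350, PDE4B and FAM3C fell. Levels were compared with a limma model on log2(TPM + 1), and the threshold for a call was an adjusted p of 0.05 (Benjamini-Hochberg, over all 15256 genes tested, those outside the autosomes included). Called genes were 18 of 15256 (0.118%), of which 5 lay outside the autosomes and are not described here, and 13 of 14672 autosomal genes (0.0886%). At an unadjusted p under 0.05 in limma there were 729 autosomal genes (4.97%), 250 higher and 479 lower in OE cells. That share is about what this threshold passes when no gene differs, so these genes are not counted as changed. The median autosomal gene differed by -0.04 log2 units. Of the 13 called genes, 11 are protein-coding and 2 are long non-coding RNAs, and they lie on 8 of the 22 autosomes.

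**Figure D1:**
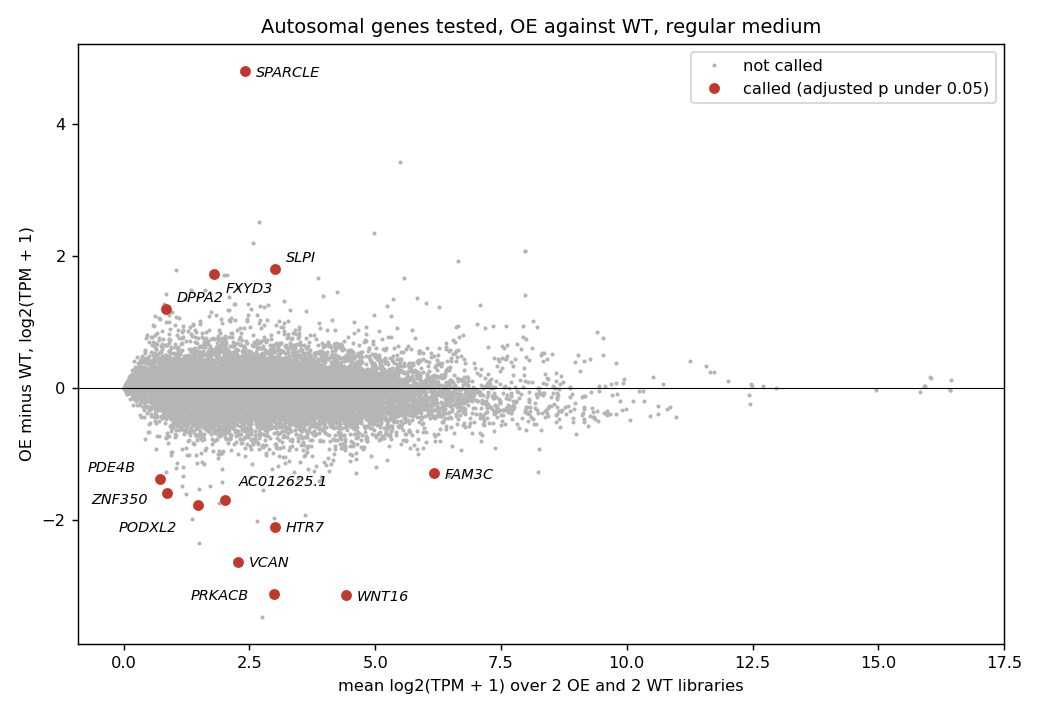
Difference between OE and WT cells in regular medium, in log2(TPM + 1) units, against the mean level over the 2 OE and 2 WT libraries, for the 14672 autosomal genes tested. The 13 called genes are labelled, 4 above 0 and 9 below it, and SPARCLE lies highest at 4.79.

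SLPI encodes a secreted inhibitor of leukocyte serine proteases made by mucosal epithelium (chromosome 20). It stood at 14.3 and 13.6 TPM in OE libraries, against 2.76 and 3.91 TPM in WT libraries. Both OE libraries lay above both WT libraries, with a difference of 1.80 ± 0.23 log2 units (SE, limma adjusted p = 0.005). The recovered reads gave a ratio of OE to WT of 4.34, with a 95% exact interval of 3.08 to 6.24 that covers counting error only. FXYD3, a small membrane protein that modulates the sodium-potassium pump (chromosome 19), stood at 5.53 and 5.12 TPM in OE libraries and at 1.05 and 0.803 TPM in WT libraries. Its difference was 1.72 ± 0.25 (SE, limma adjusted p = 0.0156), again with no overlap between the groups. DPPA2, a chromatin factor of pluripotent cells (chromosome 3), was low throughout, at 1.98 and 1.42 TPM in OE libraries and 0.179 and 0.179 TPM in WT libraries. These values rest on 24 and 27 reads in OE cells and 3 and 2 reads in WT cells, a ratio of 9.71 with a counting interval of 3.90 to 31.2. The limma difference of DPPA2 was 1.19 ± 0.20 (SE, adjusted p = 0.0415).

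Of the genes that fell, PRKACB, HTR7 and PDE4B act in cyclic AMP signalling, the pathway in which receptors coupled to the G protein Gs raise cyclic AMP, protein kinase A carries the signal onward and phosphodiesterases break the messenger down. PRKACB encodes a catalytic subunit of protein kinase A (chromosome 1). It stood at 2.20 and 1.26 TPM in OE libraries, against 26.5 and 18.9 TPM in WT libraries, and the groups did not overlap. Its difference was -3.12 ± 0.34 (SE, limma adjusted p = 0.00179), and the read ratio of OE to WT was 0.0693 (0.0606 to 0.0788). HTR7 encodes a serotonin receptor coupled to Gs (chromosome 10), and stood at 2.80 and 3.01 TPM in OE libraries and 14.9 and 16.5 TPM in WT libraries. Its difference was -2.10 ± 0.26 (SE, limma adjusted p = 0.00411). PDE4B encodes a phosphodiesterase specific for cyclic AMP (chromosome 1). It was near the limit of detection in OE cells, at 0.0281 and 0.01 TPM from 2 and 1 reads, and stood at 1.40 and 1.91 TPM in WT cells from 156 and 143 reads. The read ratio was 0.0095 (0.0020 to 0.0282), and the limma difference, which the pseudocount compresses at such levels, was -1.38 ± 0.21 (SE, adjusted p = 0.016). In bulk RNA a lower share of expressing cells and less RNA per cell cannot be told apart, for these or any genes below.

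Of the 39 genes in the cyclic AMP list, 36 were listed and 30 tested. None rose and these 3 fell, where 0.0886% of all autosomal genes were called. The list was chosen with earlier results of these data known, so this count is not a test of the pathway. The list median was -0.08, beside -0.04 for all autosomal genes tested, and turned to 0.04 without OE replicate b and 0.002 without WT replicate b. Both OE libraries lay above both WT libraries for 4 members and below them for 7. The shares over all autosomal genes were 13.0% above and 24.3% below. CREB5, a transcription factor of the CREB family, had 2.40 and 2.68 TPM in OE libraries and 1.84 and 1.11 TPM in WT libraries, and did not pass (0.53 ± 0.24, adjusted p = 0.981).

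WNT16, a secreted WNT ligand, was at 7.29 and 5.26 TPM in OE libraries, against 75.0 and 51.9 TPM in WT libraries. Every OE value was far below every WT value, with a difference of -3.14 ± 0.35 (SE, limma adjusted p = 0.00198) and a read ratio of 0.092 (0.0833 to 0.101). FAM3C, its neighbour on chromosome 7, encodes a secreted cytokine-like protein that promotes epithelial-mesenchymal transition. It stood at 49.3 and 40.9 TPM in OE libraries, against 111.2 and 111.4 TPM in WT libraries, a difference of -1.29 ± 0.19 (SE, limma adjusted p = 0.016). The genes lie at chr7:121325367-121341104 (+ strand) and chr7:121348851-121396364 (- strand), 7746 bases apart, with their 3′ ends facing each other. No other 2 called genes lay that close: the next nearest pair, VCAN and AC012625.1 on chromosome 5, was 9437359 bases apart.

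The 250 bases before the RefSeq start of each of these neighbours (GRCh38.p14) are printed 5′ to 3′ on the strand of the gene, because the pair fell together. They are WNT16 at chr7:121328750-121328999 (+ strand) and FAM3C at chr7:121396309-121396558 (- strand). The WNT16 window lies inside the longer GENCODE span of the gene given above, and the FAM3C window overlaps the end of its span. Capitals mark matches to the motifs searched on both strands.
WNT16: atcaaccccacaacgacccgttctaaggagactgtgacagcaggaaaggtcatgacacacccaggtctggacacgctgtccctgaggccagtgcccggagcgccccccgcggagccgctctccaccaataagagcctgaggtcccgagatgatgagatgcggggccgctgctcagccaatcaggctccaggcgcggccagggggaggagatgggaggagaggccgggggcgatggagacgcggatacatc
FAM3C: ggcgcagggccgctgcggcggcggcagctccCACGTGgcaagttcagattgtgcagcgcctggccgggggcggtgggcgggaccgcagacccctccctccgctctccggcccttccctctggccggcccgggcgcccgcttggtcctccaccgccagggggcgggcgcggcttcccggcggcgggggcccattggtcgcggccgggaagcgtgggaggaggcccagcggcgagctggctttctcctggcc
Both are rich in CG pairs, with 17 in WNT16 and 30 in FAM3C, beside a median of 11 over 35116 RefSeq promoters of that length. The E-box CACGTG occurred once, in FAM3C, and is held by 6.34% of all these promoters. No match was found for the cyclic AMP response element TGACGTCA (1.65% of promoters), its half-site TGACG, which overlaps it (21.2%), the TCF/LEF motif CTTTGAT (2.26%), the AP-1 motif TGACTCA (4.2%) or TATAAA (10.7%).

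In the list of 49 WNT ligands and pathway targets, 37 were listed and 34 tested. None rose and WNT16 fell, where 0.0886% of all autosomal genes were called. The median was 0.13. Both OE libraries lay above both WT libraries for 7 members and below for 3, where 13.0% of all autosomal genes lay above and 24.3% below. The list median turned to -0.03 without OE replicate a and -0.02 without WT replicate a. The ligand WNT7B, at 4.03 and 2.01 TPM in OE libraries and 0.955 and 2.09 TPM in WT libraries, overlapped between the groups.

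VCAN, which encodes the matrix proteoglycan versican (chromosome 5), stood at 1.15 and 0.732 TPM in OE libraries, against 9.14 and 13.1 TPM in WT libraries. Its difference was -2.63 ± 0.42 (SE, limma adjusted p = 0.0304). PODXL2, a sialomucin of the CD34 family (chromosome 3), had 0.839 and 0.238 TPM in OE libraries and 4.65 and 3.71 TPM in WT libraries (-1.77 ± 0.26, adjusted p = 0.0144). ZNF350, a zinc finger repressor that binds BRCA1 (chromosome 19), had 3 and 1 reads in OE libraries and 134 and 79 reads in WT libraries. Its levels were 0.0786 and 0.019 TPM in OE cells and 2.29 and 2.02 TPM in WT cells, with a read ratio of 0.0179 (0.0048 to 0.0464) and a limma difference of -1.59 ± 0.19 (SE, adjusted p = 0.00309). AC012625.1, an intergenic long non-coding RNA on chromosome 5, had 1.30 and 1.18 TPM in OE libraries and 7.22 and 5.39 TPM in WT libraries (-1.70 ± 0.25, adjusted p = 0.0145). In each of these 4 genes both OE libraries lay below both WT libraries. DPPA2, PODXL2, ZNF350 and AC012625.1 fell below the level of 5 TPM set for naming genes, or carry a clone name, and are described because they were called.

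**Figure D2:**
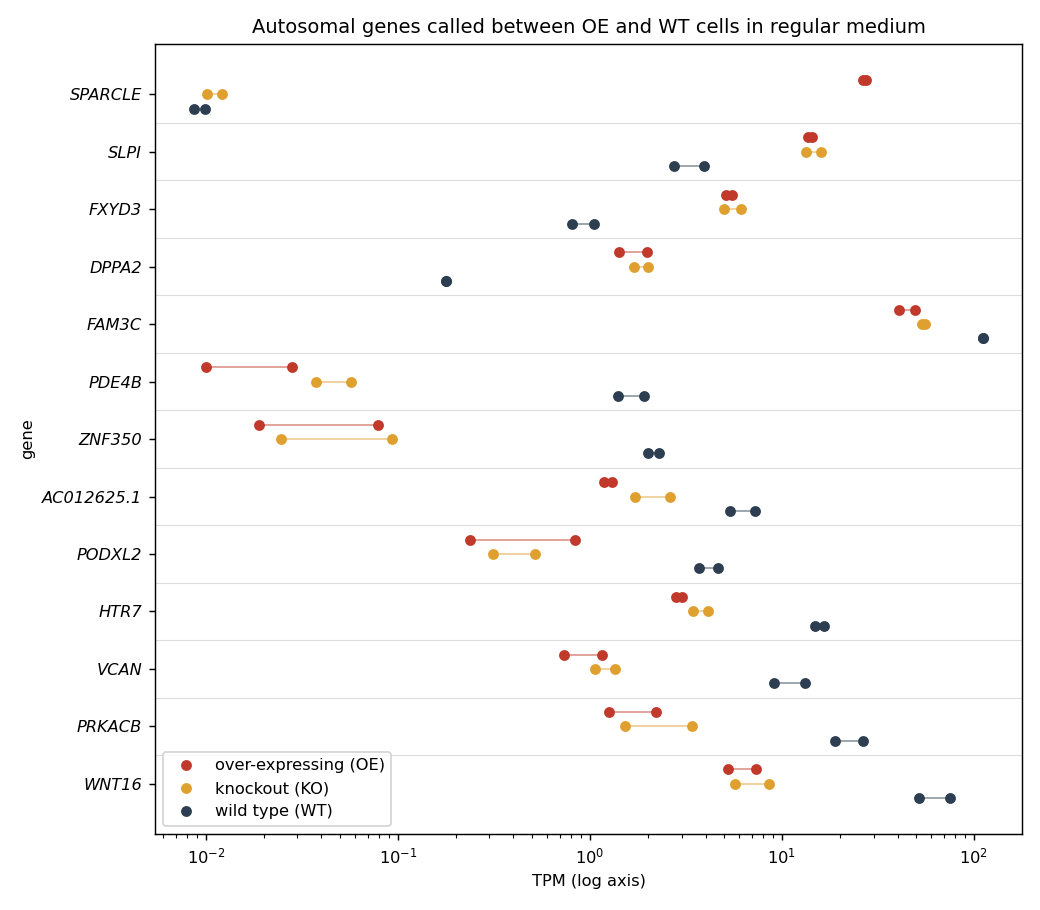
TPM (log axis) of the 13 called autosomal genes in each library in regular medium, with 2 points per group, OE above KO above WT within each gene. In the 12 genes other than SPARCLE the KO points lie beside the OE points and apart from the WT points; for SPARCLE both WT and KO libraries have 0 reads and the points show the prior count.

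SPARCLE, WNT16 and PRKACB stayed called when any 1 of the 4 libraries was left out, with adjusted p values up to 6.81e-06, 0.048 and 0.048. The other 10 lost the call without at least 1 library. HTR7 had an adjusted p of 0.0799 without OE replicate a, 0.075 without OE replicate b, 0.0381 without WT replicate a and 0.0675 without WT replicate b. ZNF350 passed without either WT library and not without OE replicate a (0.0519) or OE replicate b (0.075). SLPI passed only without WT replicate b, and ranged from 0.0291 to 0.0972. PODXL2 passed only without OE replicate a, and ranged from 0.0357 to 0.375. FXYD3 (0.0819 to 0.204), DPPA2 (0.21 to 0.655), VCAN (0.0946 to 0.431), FAM3C (0.0863 to 0.431), AC012625.1 (0.066 to 0.312) and PDE4B (0.0597 to 0.375) passed in none of these 4 fits, in which the lone library of a group is assumed to vary like the other groups. VCAN also lost its call with a pseudocount of 0.1 TPM, without small RNAs and with voom, 7 of its 11 alternatives in all. With voom SLPI, DPPA2 and AC012625.1 were not called either. When only the groups compared were fitted, SLPI, FXYD3, FAM3C, PDE4B, DPPA2, PODXL2 and AC012625.1 were not called.

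Other autosomal genes had differences as large that did not pass. Among those higher in both OE libraries, the interferon-induced IFI27 had 5.21 and 24.7 TPM in OE cells and 1.57 and 1.96 TPM in WT cells (2.20 ± 0.55, adjusted p = 0.303). Without OE replicate a it was called (adjusted p = 0.0316). SYTL2, a partner of RAB27 in vesicle transport, had 25.7 and 24.2 TPM in OE cells and 5.26 and 9.73 TPM in WT cells (1.66 ± 0.35, adjusted p = 0.172). GAST, which encodes gastrin, had 6.32 and 6.80 TPM in OE cells and 2.01 and 0.773 TPM in WT cells (1.71 ± 0.55, adjusted p = 0.674). FXYD4, IFI6, PURPL and TRNP1 differed by 1.448 to 1.701 with adjusted p values from 0.22 to 0.556. PURPL is a long non-coding RNA that p53 induces.

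Among those lower in both OE libraries, CYP24A1, the enzyme that inactivates vitamin D, had 1.41 and 0.695 TPM in OE cells and 14.3 and 31.2 TPM in WT cells. Its difference of -3.46 ± 0.72 (SE) exceeded that of every called gene that fell, but its libraries varied more and the adjusted p was 0.172. It was called when only the groups compared were fitted (adjusted p = 0.0311). NECTIN3, a cell adhesion protein, had 6.49 and 4.15 TPM in OE cells and 27.8 and 18.4 TPM in WT cells (-1.93 ± 0.36, adjusted p = 0.0878). NR2F1, an orphan nuclear receptor, had 3.36 and 1.24 TPM in OE cells and 9.36 and 14.5 TPM in WT cells (-2.02 ± 0.39, adjusted p = 0.119). NECTIN3 and NR2F1 were each called under median-ratio scaling and with voom, at adjusted p values down to 0.00668 for NECTIN3 and 0.0274 for NR2F1 over all alternatives. ANXA10 and the glucose transporter gene SLC2A3 differed by -2.34 and -1.73 (adjusted p = 0.445 and 0.198).

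The KO cells in regular medium give a further level for each gene. Comparing OE with WT and KO with WT uses the same WT libraries, so the values are set side by side and the difference between them was tested as OE minus KO. In that contrast 1 of 15256 genes was called (0.00655%), and it was SPARCLE, at 4.79 ± 0.22 (SE, adjusted p = 1.68e-07). At an unadjusted p under 0.05 in limma there were 464 autosomal genes, 17 higher and 447 lower in OE cells. That is fewer than the 729 of OE against WT, and no more than this threshold passes when no gene differs. The median difference over all autosomal genes was -0.24, so the uneven split is not read as a result about single genes. Without KO replicate b, 3 genes were called. The 12 others had adjusted p values from 0.784 to 0.983. WNT16 stood at 7.29 and 5.26 TPM in OE libraries and 8.56 and 5.69 TPM in KO libraries, which differed by -0.15 with a 95% interval from -0.91 to 0.61. PRKACB stood at 2.20 and 1.26 TPM in OE libraries and 3.41 and 1.52 TPM in KO libraries (-0.31, interval -1.04 to 0.42). SLPI stood at 14.3 and 13.6 TPM in OE libraries and 13.3 and 16.1 TPM in KO libraries (-0.06, interval -0.56 to 0.44).

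Against WT, the fall of WNT16 was -3.14 in OE cells and -2.99 in KO cells, that of PRKACB was -3.12 in OE cells and -2.81 in KO cells, and that of ZNF350 was -1.59 in OE cells and -1.57 in KO cells. The rise of SLPI was 1.80 in OE cells and 1.86 in KO cells, and that of FXYD3 was 1.72 in OE cells and 1.76 in KO cells. Of the 13 called genes, SPARCLE alone was called between the OE and KO lines. Among the other 12, the 95% interval of OE minus KO was widest for VCAN, from -1.11 to 0.72, and narrowest for ZNF350, from -0.42 to 0.40. Within both letters, a and b, OE was lower than KO for WNT16, PRKACB, VCAN, HTR7, FAM3C and AC012625.1, and not for PODXL2. PDE4B had 2 and 1 reads in OE libraries and 3 and 5 reads in KO libraries. ZNF350 had 3 and 1 reads in OE libraries and 4 and 1 reads in KO libraries. With so few reads, the order of these 2 genes within a letter was not read. The median autosomal gene was also lower in OE than in KO cells, with a difference of -0.24. The share of all genes lower within both letters was not counted, and the letters mark no shared culture in the labels.

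The same comparison with doxorubicin took its means from libraries that gave no mean in the regular-medium comparison. Its SE came from the same fit over all 12 libraries, and for WNT16 was 0.35 in both media. The calls in both media are thus not independent. There, 48 of 15256 genes were called between OE and WT cells (0.315%). All 13 genes differed in the same direction as in regular medium, and 9 of the 13 were called. SLPI, FXYD3, VCAN and DPPA2 were not called with doxorubicin (adjusted p = 0.147, 0.18, 0.0798 and 0.993). SPARCLE stood at 13.7 and 13.5 TPM in OE cells and 0.012 and 0.112 TPM in WT cells. WNT16 stood at 0.795 and 1.25 TPM in OE cells, against 83.5 and 40.7 TPM in WT cells (-4.89 ± 0.35, SE, adjusted p = 1.33e-05). HTR7 stood at 2.67 and 1.98 TPM in OE cells, against 17.61 and 11.95 TPM in WT cells (-2.23 ± 0.26, SE, adjusted p = 0.00152). PRKACB stood at 3.87 and 3.04 TPM in OE cells, against 30.9 and 18.9 TPM in WT cells (-2.51 ± 0.34, SE, adjusted p = 0.00574).

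Whether the difference itself changed with the drug was tested as an interaction, which called 1 of 15256 genes (0.00655%), PDE4B. It stood at 0.069 and 0.0436 TPM in OE cells and at 23.03 and 22.11 TPM in WT cells with doxorubicin, so the fall of -1.38 in regular medium was set against one of -4.48 with the drug. The interaction was -3.10 ± 0.29 (SE, limma adjusted p = 0.00131). With a pseudocount of 0.1 TPM the interaction was -3.31 and did not pass (adjusted p = 0.88), and with voom on the recovered reads it was -2.19 (adjusted p = 1). The interaction of WNT16 was -1.75 with an unadjusted 95% interval from -2.82 to -0.68, and its adjusted p was 1.

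**Figure D3:**
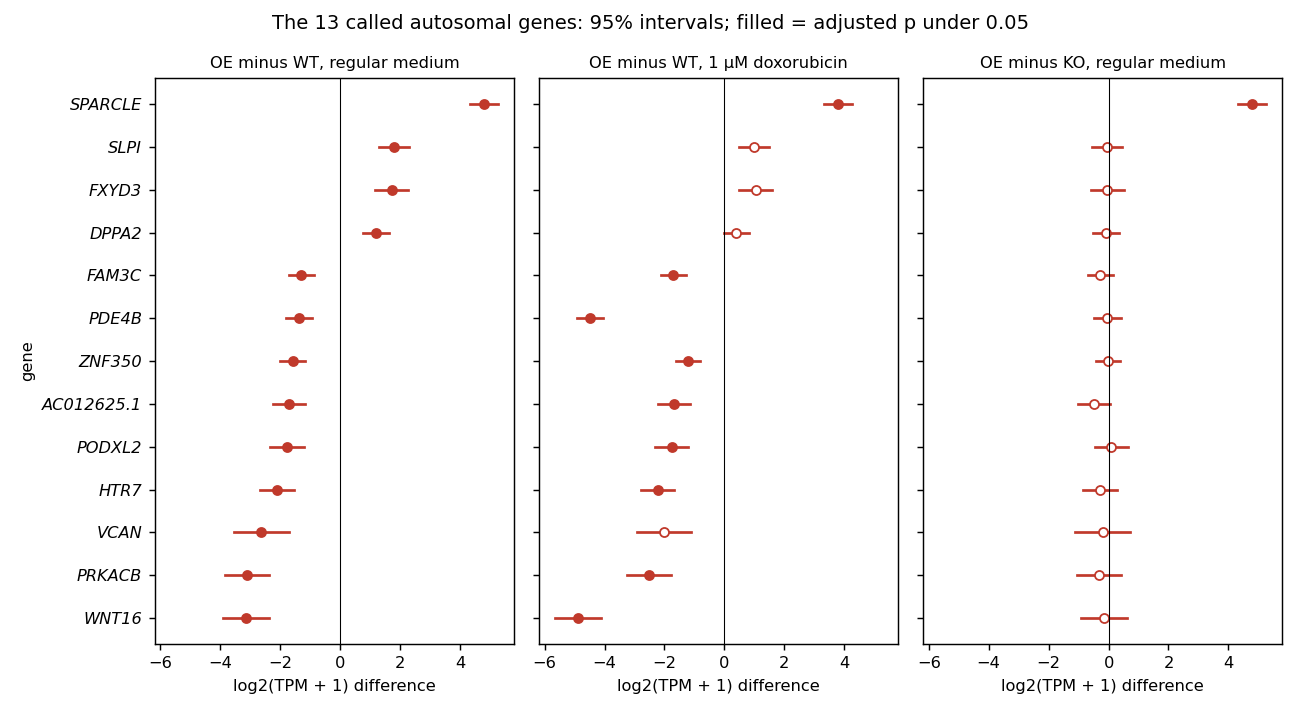
Differences with 95% intervals, in log2(TPM + 1) units, of the 13 called autosomal genes, for OE minus WT in regular medium, OE minus WT with 1 µM doxorubicin and OE minus KO in regular medium. Filled points passed an adjusted p of 0.05, which in the OE minus KO panel is SPARCLE alone.

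The genes nearest to the known roles of SPARCLE showed no called change. PARP1 stood at 47.8 and 39.9 TPM in OE libraries and 39.8 and 44.0 TPM in WT libraries (0.06, 95% interval -0.41 to 0.53). CDKN1A, the cell cycle inhibitor that p53 induces, stood at 107.6 and 84.6 TPM in OE libraries and 73.5 and 109.6 TPM in WT libraries (0.09, interval -0.66 to 0.84). MDM2, the ligase that degrades p53, stood at 21.9 and 22.2 TPM in OE libraries and 21.3 and 23.8 TPM in WT libraries (-0.03, interval -0.60 to 0.54). The groups overlapped for all 3 genes, and each adjusted p was 1.

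Of 48 p53 targets tested, none was called by limma, 2 had an unadjusted p under 0.05, and their median was -0.06. Both OE libraries lay above both WT libraries for 6 of them and below for 11, where 13.0% of all autosomal genes lay above and 24.3% below. These shares, and that of the unadjusted p, were near those of all autosomal genes (4.97% for the unadjusted p). Without WT replicate b the median turned to 0.04. CCNG1, a p53-induced cyclin, had 106.0 and 100.4 TPM in OE libraries and 149.4 and 145.1 TPM in WT libraries (-0.51 ± 0.19, adjusted p = 0.85). PERP, a p53-induced membrane protein, went the other way, with 115.8 and 130.1 TPM in OE libraries and 93.8 and 80.8 TPM in WT libraries (0.49 ± 0.20, adjusted p = 0.894). The miR-34 target list had 30 members tested of 39, with none called, 2 at an unadjusted p under 0.05, and a median of -0.07 that turned to 0.11 without OE replicate b. Both OE libraries lay above both WT libraries for 1 member and below for 11. Its member with the smallest adjusted p was CDK6, a kinase of early cell cycle, at 4.37 and 3.75 TPM in OE libraries and 9.82 and 11.9 TPM in WT libraries (-1.22 ± 0.29, adjusted p = 0.279). JAG1, a Notch ligand, had 13.8 and 14.4 TPM in OE libraries and 26.2 and 20.3 TPM in WT libraries (-0.67 ± 0.30, adjusted p = 0.981). Among 26 PARP and ADP-ribose enzymes tested, none was called, 1 had an unadjusted p under 0.05, and their median was -0.02, which changed sign in several alternatives. The caspase list (22 tested, median 0.01) and the BCL2 family (17 tested, median 0.17, and 0.01 without WT replicate a) also held no called gene.

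Mitotic genes were lower as a group in OE cells without any single one passing the test. Of 44 genes in the G2/M and mitosis list 43 were tested, none rose, none fell by the call, and all 43 had differences below 0, with a median of -0.79 beside -0.04 for all autosomal genes. Both OE libraries lay below both WT libraries for 40 of the 43, where 24.3% of all autosomal genes did. At an unadjusted p under 0.05 there were 34. MKI67, a marker of dividing cells, had 11.6 and 8.56 TPM in OE libraries and 15.9 and 39.9 TPM in WT libraries (-1.26 ± 0.36, adjusted p = 0.508). CENPF, a kinetochore protein, had 12.2 and 17.6 TPM in OE libraries and 29.4 and 47.1 TPM in WT libraries (-1.28 ± 0.29, adjusted p = 0.198). KIF2C, a mitotic kinesin, had 15.6 and 15.1 TPM in OE libraries and 30.1 and 34.3 TPM in WT libraries (-1.02 ± 0.27, adjusted p = 0.337). ANLN, which acts in cytokinesis, had 22.9 and 27.2 TPM in OE libraries and 46.4 and 62.8 TPM in WT libraries (-1.08 ± 0.30, adjusted p = 0.45).

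By library, the median of the 43 genes lay -0.45 and -0.34 log2 units from the mean of the 4 libraries in OE cells, and 0.24 and 0.56 from it in WT cells. The KO libraries stood at -0.69 and 0.02 on the same scale, so they differed from each other by more than the OE libraries did. The list median was -0.73 for KO against WT, and -0.06 for OE against KO. Culture density and the share of dividing cells are not given by the labels, and their part in the result was not tested. DNA replication genes had a median of -0.10 (42 tested, none called, 2 at an unadjusted p under 0.05), and the replication-dependent histones, made in S phase, had -0.22 (36 tested, none called, 3 unadjusted). Without WT replicate b these medians turned to 0.01 for DNA replication and 0.07 for the histones.

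**Figure D4:**
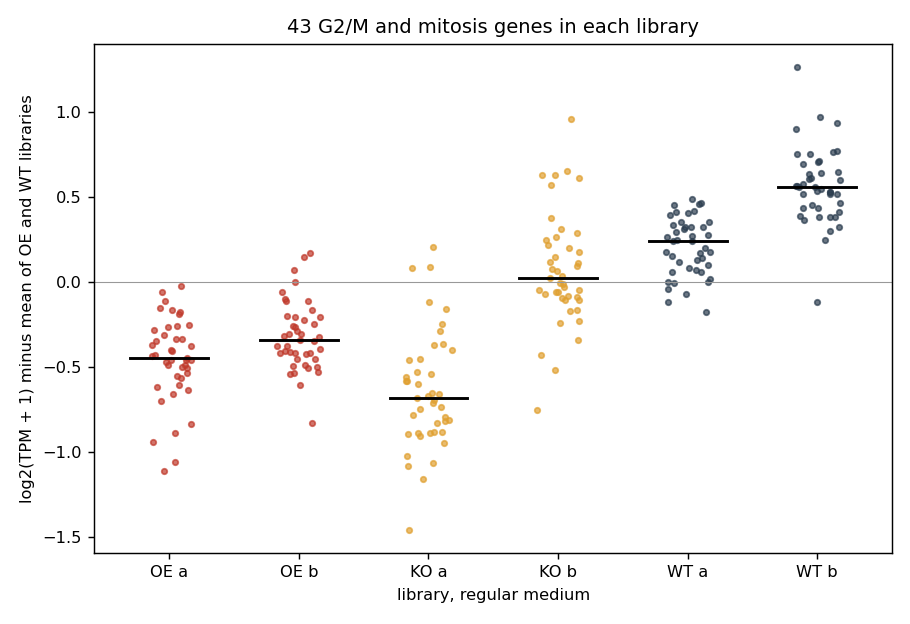
Level of each of the 43 G2/M and mitosis genes in each library in regular medium, as log2(TPM + 1) minus the mean of the 2 OE and 2 WT libraries; each point is a gene and black bars are medians. The OE medians are -0.45 and -0.34, the KO medians -0.69 and 0.02, and the WT medians 0.24 and 0.56.

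Translation and stress genes were also mostly lower in OE cells, with no gene called by limma. At an unadjusted p under 0.05 there were 18 ribosomal protein genes, 9 targets of ATF4 and CHOP, 5 cholesterol genes, 3 DNA damage genes and 1 chaperone, beside 4.97% of all autosomal genes. The chaperone count, 1 of 24, is no more than that share gives. Of 75 cytosolic ribosomal protein genes, 74 had differences below 0 and 59 had both OE libraries below both WT libraries, where 24.3% of all autosomal genes did. Their median was -0.37. RPL41 had 417.4 and 379.7 TPM in OE libraries and 698.7 and 595.2 TPM in WT libraries (-0.69 ± 0.24, adjusted p = 0.751). RPL23 had 185.6 and 187.1 TPM in OE libraries and 308.8 and 260.6 TPM in WT libraries (-0.60 ± 0.20, adjusted p = 0.674). Of 26 targets of ATF4 and CHOP, the factors of the amino acid and unfolded protein stress response, 16 had both OE libraries below both WT libraries, against the same 24.3%, and the median was -0.40. SLC7A11, the cystine transporter, had 1.23 and 1.55 TPM in OE libraries and 4.31 and 6.70 TPM in WT libraries (-1.43 ± 0.30, adjusted p = 0.172). SLC7A11, CDK6, SYTL2 and CA12 were called under median-ratio scaling and with voom. ATF4 had 103.3 and 109.7 TPM in OE libraries and 177.0 and 165.5 TPM in WT libraries (-0.68 ± 0.22, adjusted p = 0.672).

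Endoplasmic reticulum chaperones had a median of -0.29, with both OE libraries below both WT libraries for 17 of 24, where 24.3% of all autosomal genes lay below. Cholesterol synthesis genes had a median of -0.34, with 16 of 31 below in that sense. SCD, a fatty acid desaturase, had 223.1 and 222.1 TPM in OE libraries and 340.6 and 521.0 TPM in WT libraries (-0.92 ± 0.36, adjusted p = 0.894). HMGCS1, an early enzyme of the pathway, had 30.9 and 42.0 TPM in OE libraries and 81.9 and 49.2 TPM in WT libraries (-0.80 ± 0.30, adjusted p = 0.866). DNA damage sensors and checkpoint genes had a median of -0.24, with 14 of 29 below, and the median was -0.41 without WT replicate a and -0.14 without WT replicate b. The 13 tested neighbours of SPARCLE on 11q23 had a median of -0.23, with 7 below and none called. For KO against WT, medians were -0.17 for ribosomal proteins, -0.31 for ATF4 and CHOP targets, -0.10 for chaperones and -0.13 for cholesterol genes. They were 0.11 for DNA damage genes and 0.05 for the neighbours, beside 0.20 for all autosomal genes tested.

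Other groups had medians above 0 in OE cells. They were above 0 in KO cells against the same WT libraries too, where the median of all autosomal genes tested was 0.20. These KO medians were 0.44 for interferon, 0.24 for proteases, 0.33 for epithelial markers and 0.36 for keratins. They were 0.22 for glycolysis, 0.92 for the leukocyte list and 0.52 for kidney and neural markers. WT replicate a was the lowest of the 4 libraries for the interferon, protease, epithelial, keratin and glycolysis lists. Of 42 interferon response genes tested, none was called, 10 differed at an unadjusted p under 0.05, 38 had differences above 0, and 17 had both OE libraries above both WT libraries, where 13.0% of all autosomal genes did. Their median was 0.27, and it was 0.06 without WT replicate a and 0.62 without WT replicate b. By library the list lay 0.15 and 0.11 log2 units from the mean of the 4 libraries in OE cells and -0.45 and 0.12 from it in WT cells, so WT replicate b stood level with the OE libraries. With a pseudocount of 0.1 TPM the median was 0.50, and with voom 0.58. IRF7, a transcription factor of the interferon system, had 23.8 and 24.3 TPM in OE libraries and 9.30 and 13.7 TPM in WT libraries (1.02 ± 0.30, adjusted p = 0.527).

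Secreted proteases and their inhibitors had a median of 0.33. SLPI was called, 1 of 22 tested, where 0.0886% of all autosomal genes were called. Both OE libraries lay above both WT libraries for 12 and below for 2, where 13.0% of all autosomal genes lay above and 24.3% below. The median was 0.20 without OE replicate a and 0.21 at a mean of at least 5 TPM. SERPINB1, an inhibitor of neutrophil proteases, had 80.0 and 62.8 TPM in OE libraries and 31.7 and 46.3 TPM in WT libraries (0.87 ± 0.25, adjusted p = 0.505). MMP1, an interstitial collagenase, had 1.33 and 1.40 TPM in OE libraries and 0.204 and 0.067 TPM in WT libraries (1.06 ± 0.23, adjusted p = 0.172). Epithelial markers had a median of 0.33 and none called. Of 16 tested, 8 lay above and 2 below, where 13.0% and 24.3% of all autosomal genes did, and 3 had differences below 0. By library they lay at 0.31 and 0.08 in OE cells and -0.34 and 0.03 in WT cells, and the median was 0.11 without WT replicate a and 0.58 without WT replicate b. KRT8, a keratin of simple epithelium, had 338.6 and 302.0 TPM in OE libraries and 168.5 and 208.0 TPM in WT libraries (0.77 ± 0.19, adjusted p = 0.282). CLDN7, a tight junction protein, had 167.9 and 230.1 TPM in OE libraries and 112.9 and 96.9 TPM in WT libraries (0.90 ± 0.23, adjusted p = 0.33). EPCAM, of the colon epithelial markers first examined, went the other way, with a difference of -0.41 that was not called. The keratins had a median of 0.21, and 0.54 without small RNAs. Of 15 tested, 8 lay above and 2 below, and 5 had differences below 0. By library they lay at 0.20 and 0.04 in OE cells and -0.21 and 0.04 in WT cells, so OE replicate b and WT replicate b were level.

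Glycolysis and hypoxia genes had a median of 0.23, with 13 of 37 above and 5 below, where 13.0% and 24.3% of all autosomal genes did, and none called. By library they lay at 0.24 and -0.02 in OE cells and -0.28 and 0.08 in WT cells, so OE replicate b lay below WT replicate b. The median was 0.10 without OE replicate a, 0.05 without WT replicate a and 0.40 without WT replicate b. CA12, a hypoxia-induced carbonic anhydrase, had 5.348 and 3.115 TPM in OE libraries and 0.638 and 1.06 TPM in WT libraries (1.48 ± 0.34, adjusted p = 0.208), while SLC2A3 of the same list was lower in both OE libraries. S100A4, a calcium-binding protein from the mesenchymal list, had 204.2 and 213.8 TPM in OE libraries and 70.1 and 107.5 TPM in WT libraries (1.26 ± 0.27, adjusted p = 0.193). The list itself had a median of -0.05, and VIM, the mesenchymal intermediate filament, had 0.466 and 0.339 TPM in OE libraries and 1.46 and 2.04 TPM in WT libraries (-0.97 ± 0.42, adjusted p = 0.967). All 6 tested genes of a leukocyte list had differences above 0, with a median of 0.68, or 0.40 with no filter on low values, and none called. They include HLA-DRB1, at 3.93 and 3.50 TPM in OE libraries and 1.26 and 1.17 TPM in WT libraries (1.09 ± 0.26, adjusted p = 0.282, and called under median-ratio scaling), while ITGAM was near 0 as given above. The 5 tested kidney and neural markers had a median of 0.27, and 0.07 without WT replicate a.

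**Figure D5:**
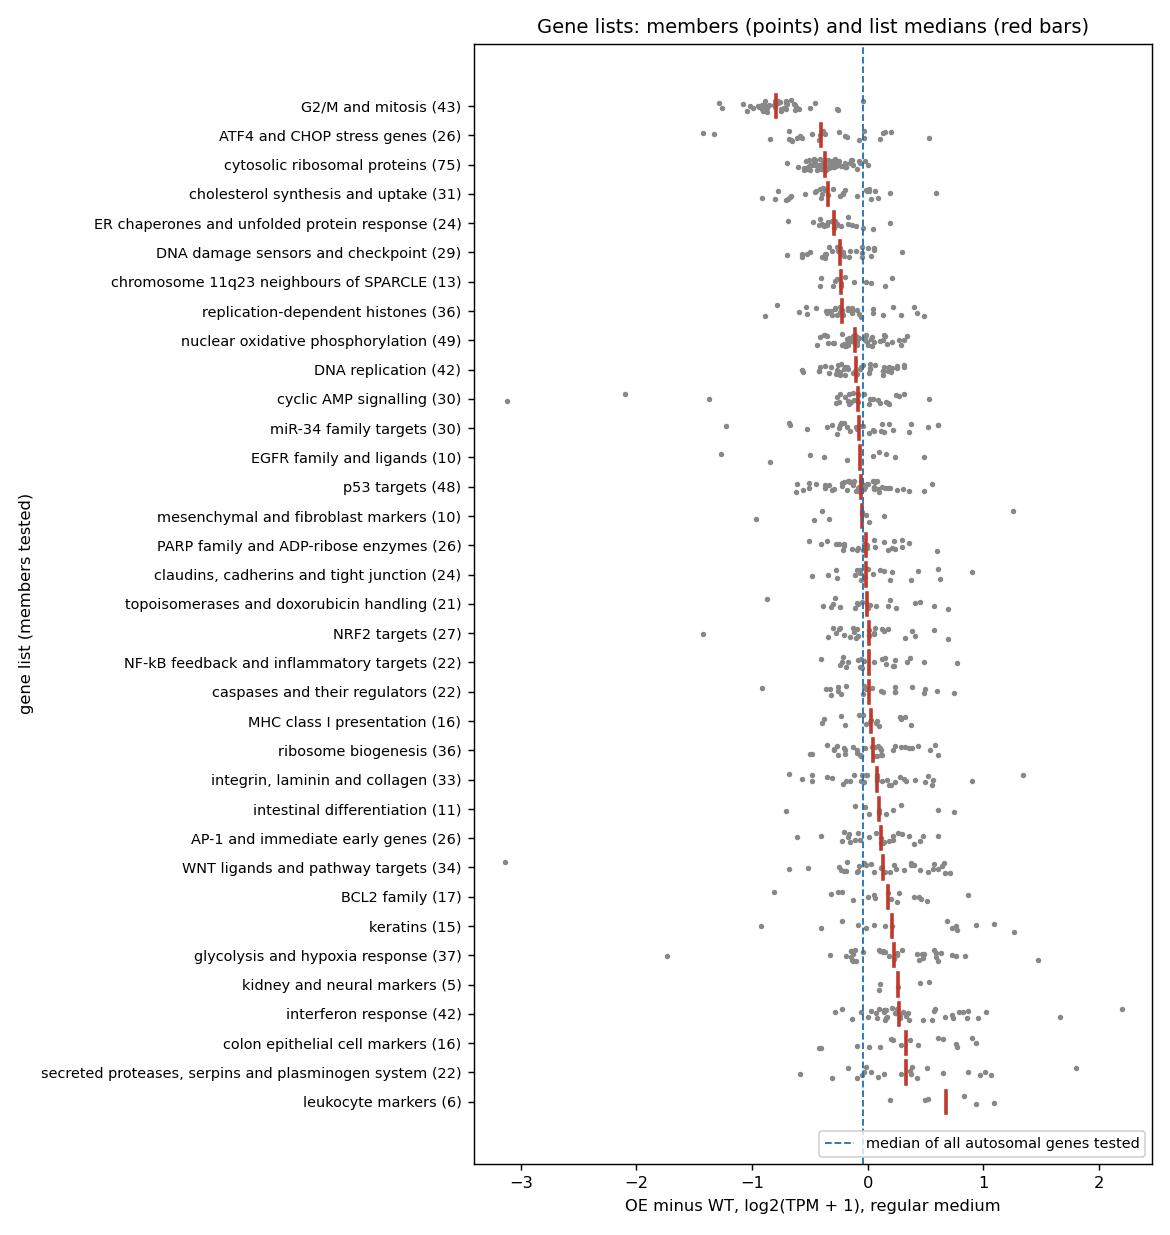
Differences between OE and WT cells in regular medium, in log2(TPM + 1) units, of the members of 35 gene lists (grey points) with the list medians (red bars) and the median of all autosomal genes tested (dashed line, -0.04). The G2/M and mitosis list has the lowest median, -0.79, and the leukocyte list, with 6 members tested, the highest, 0.68.

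The remaining lists had medians between -0.11 and 0.12 with no gene called. They covered oxidative phosphorylation, ribosome biogenesis, MHC class I, NF-kB targets, immediate early genes, EGFR family, NRF2 targets, tight junctions, integrins and matrix, intestinal differentiation, and topoisomerases with doxorubicin handling. Across autosomes the median difference ran from -0.11 on chromosome 5 to 0.06 on chromosome 19. Of 298 small RNA genes tested, none was called by limma.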

How the data were processed

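Total RNA was sequenced from stranded libraries, per the labels' protocols. The deposited values are log2 TPM, per the file headers, and 2 to their power has the same sum in every column. The genome build was hg38 and the tools were edgeR 3.12.1 in R 3.3.3, featureCounts, SAMtools 1.7 and HISAT2 2.0.4, per the submitters' processing notes; annotation and strand setting are not given in the sources used here. Names came from GENCODE v29, and SPARCLE was found by its RefSeq gene identifier.

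Values were tested on log2(TPM + 1) with limma 3.58.1 (R 4.3.3; lmFit, eBayes with trend), with 6 group means over 12 libraries, 6 residual and 6.97 prior degrees of freedom. P-values are two-sided and adjusted over 15256 genes. Reads were recovered from TPM, gene length and a prior count: 91.66% of genes with a GENCODE length gave whole reads within 0.05. For the other genes, SPARCLE among them, a length that gives whole reads was searched. The fit and the recovery were tested on simulated data. Ratios of reads carry 95% exact intervals for counting error; the floor is 3 reads per library.

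The autosomal genes, the 35 lists and the naming rule were chosen with earlier results of these data known. The rule named called genes with a mean of at least 5 TPM whose groups do not overlap, filled to 10 a direction by unadjusted p under 0.05, plus up to 4 genes a list and SPARCLE, CDKN1A, MDM2, PARP1, PDE4B, WNT16 and PRKACB in any case. Some genes that the rule names are not reported here. Replicate letters marked no shared culture in the labels, so the main fit had no block.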

Additional observations from a re-analysis of the deposited data

Results flagged for a closer look

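PDE4B was flagged because its interaction between line and medium was called, at -3.10 on the log2(TPM + 1) scale. That call was lost with a pseudocount of 0.1 TPM and with voom. With doxorubicin the OE libraries stood at 0.069 and 0.0436 TPM and the WT libraries at 23.03 and 22.11 TPM; in regular medium the OE libraries stood at 0.0281 and 0.01 TPM and the WT libraries at 1.40 and 1.91 TPM.

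SPARCLE was flagged because OE and KO cells in regular medium differed by 4.79, with 384 and 622 reads in OE libraries and 0 and 0 reads in KO libraries.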

How the results depend on the processing

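For OE against WT, 13 autosomal genes were called. A mean level of at least 5 TPM left 7, fitting only the groups compared left 8, median-ratio scaling gave 37 (15 higher and 22 lower) and voom on recovered reads gave 21. Leaving out 1 of the 4 libraries gave 3 to 8. For OE minus KO, leaving out 1 library gave 1 to 3 calls. The interaction call was lost, leaving 0, with a pseudocount of 0.1 TPM, a mean of at least 5 TPM and voom, and fitting only the groups compared gave 6. The replicate block with all groups gave 18 calls for OE against WT. The deviations of letters a and b correlated at -0.35 between OE and WT, 0.50 between OE and KO and 0.81 between OE and KO with doxorubicin; with the replicate block OE minus KO still gave 1 call. In 2 alternatives chosen after seeing the data and restricted to these groups, 46 genes were called with the replicate block and 44 with crossed pairing. Every other count lay within 1.5 times its main value. SPARCLE was called throughout, with differences from 4.77 to 9.93. Leaving out 1 library moved CDKN1A between -0.198 and 0.3721, MDM2 between -0.1028 and 0.0451 and PARP1 between -0.0663 and 0.186, on both sides of 0; MDM2 also turned to 0.0161 with median-ratio scaling, 0.0171 without small RNAs and 0.0152 with voom. The cause was not tested. The G2/M median stayed between -0.96 and -0.63, that of ribosomal proteins between -0.52 and -0.27, and that of interferon genes between 0.06 without WT replicate a and 0.62 without WT replicate b. A level under 3 reads in a library was not told apart from 0 at this depth.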

Other observations

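Some autosomal genes that the naming rule leaves out had larger differences than most called genes, and they were chosen after their values were seen. MTCO2P12, a nuclear copy of a mitochondrial gene on chromosome 1, had 81.2 and 260.5 TPM in OE libraries, 43.74 and 15.02 TPM in KO libraries and 12.3 and 13.2 TPM in WT libraries. Its difference between OE and WT was 3.41 ± 0.72 (SE, limma adjusted p = 0.172). Its neighbour MTCO1P12 had 39.3 and 124.0 TPM in OE libraries and 12.2 and 13.8 TPM in WT libraries (2.35 ± 0.53, adjusted p = 0.206). Reads of such near-identical copies can be split or shared in counting, so these levels are uncertain. H19, an imprinted long non-coding RNA, had 21.1 and 9.65 TPM in OE libraries, 9.41 and 13.2 TPM in KO libraries and 2.39 and 1.15 TPM in WT libraries (2.51 ± 1.30, limma adjusted p = 1 between OE and WT).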
